A study of Strongylocentrotus purpuratus with 9 samples.

Results

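Wide eRNA peaks were defined as intervals of 500 bp or more with a score of at least 3 and below 44, the 95th percentile of the scores of all peaks in the v3.1 list. There were 1102 such peaks among 18076 eRNA peaks in all (6.10%), and they were set beside the 4908 peaks of 200 to 400 bp in the same score range. The score range held 9128 peaks, of which wide peaks made up 12.1%, and the remaining 3118 peaks of the range belonged to neither class (1650 under 200 bp and 1468 of 401 to 499 bp). The peaks came from CAGE libraries of total RNA from whole embryos of the purple sea urchin, *Strongylocentrotus purpuratus*, kept at 15°C and sampled every 6 h from just after fertilization (0 hpf) until 48 hpf. There were 9 libraries, each the only one of its stage, and the labels say that they were drawn from separate embryo cultures without saying which culture gave which library. The list pools the libraries, so that neither a stage nor a spread between replicates can be attached to a peak, and how many reads stand behind each peak is not known.

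Enhancers are stretches of DNA that raise transcription of genes at a distance, and active enhancers are themselves transcribed into short, unstable, capped RNAs known as enhancer RNAs (eRNAs). CAGE reads the capped 5′ ends of RNAs, and an enhancer is recognized by clusters of start sites on opposite strands that point away from each other. Clusters of active enhancers that lie close together are well known from animal genomes, especially around developmental control genes. In the sea urchin embryo, enhancers of this kind are the points at which the gene regulatory networks of early development act on their target genes.

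Width and score chose the wide peaks, so that both are given here as a description. Wide peaks measured 590 bp at the median, with quartiles of 533 and 689 bp and a maximum of 1596 bp, and peaks of 200 to 400 bp measured 321 bp at the median, with quartiles of 267 and 365 bp. Most of them lay near the lower limit, since 852 of the 1102 (77.3%) were under 700 bp and 32 were 1000 bp or more. Although they made up 6.10% of all peaks, they covered 12.4% of the bases under peaks, 700337 bp of 5649457 bp. A single wide peak, of 566 bp at Scaffold448:487-1052, carries the joined names of a pair of overlapping intervals, and its score was 7.

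The score is a whole number that the authors gave each peak, and the sources used here do not define it. Scores of wide peaks were higher within the shared range. The median score was 11 (quartiles 6 and 21) for wide peaks and 5 (quartiles 3 and 8) for peaks of 200 to 400 bp, a difference of 6. A score of 20 or more was held by 28.3% of wide peaks and by 6.64% of peaks of 200 to 400 bp, while the lowest score of the range, 3, was held by 10.1% and 30.1% of them. With no upper score limit the difference was 14. Scores divided by width were closer, with medians of 1.86 per 100 bp in wide peaks and 1.58 per 100 bp in peaks of 200 to 400 bp. Their order was mixed, with lower quartiles of 0.94 and 1.09, upper quartiles of 3.32 and 2.75 and means of 2.34 and 2.41. Among the wide peaks themselves, whose scores the rule held below 44, the score went up weakly with width (Pearson's r = 0.20, Spearman's rho = 0.19 over 1102 peaks, which share their libraries and their caller). The increase was uneven: in width classes starting at 500, 550, 600, 650, 700, 800, 900, 1000 and 1200 bp, the median score was 10, 9, 13, 12, 13.5, 19, 17, 21 and 22, the last over 13 wide peaks. The upper score limit left out 14.5% of the peaks in the class starting at 500 bp and 60% in the class starting at 1000 bp. With peaks of any score, the median was 11 and 60.5 in these classes and 45 from 1200 bp on. Without the score limits the median thus also went up with width, unevenly, and over a larger span of scores than within the range.

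**Figure D1:**
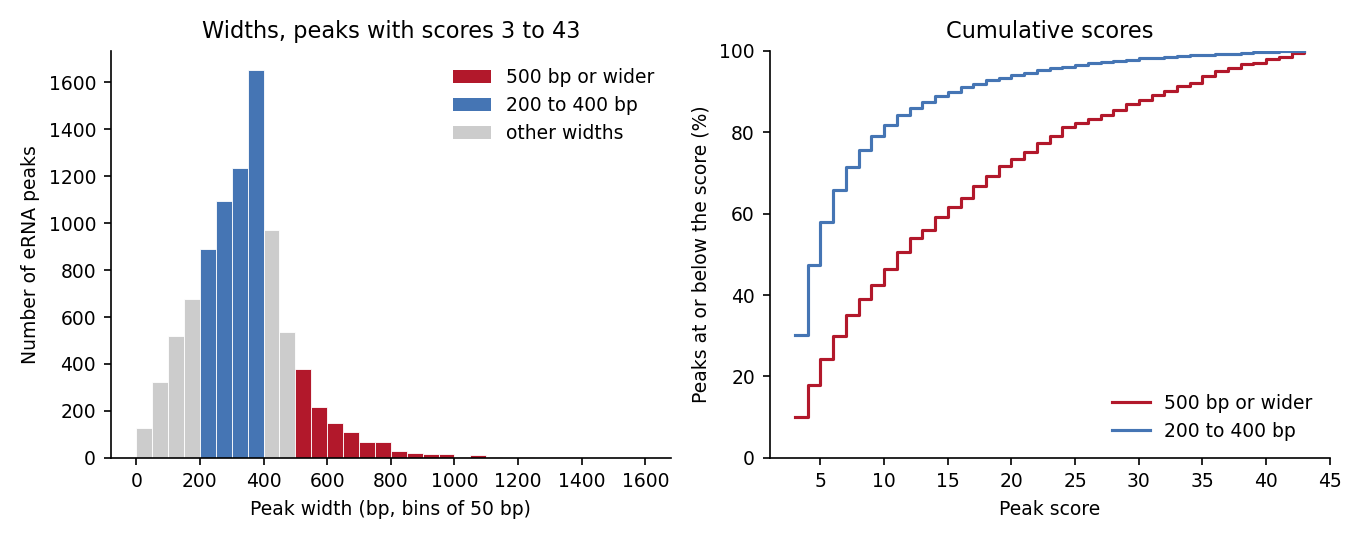
Left, the number of eRNA peaks with scores 3 to 43 in width bins of 50 bp, with bins of 500 bp or more in red, bins from 200 to 399 bp in blue and other bins in gray. Right, the share of peaks at or below each score, for wide peaks (red) and peaks of 200 to 400 bp (blue), whose curves reach the middle at the medians of 11 and 5.

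Few peaks lay exactly on the width limit or the upper score limit, whereas the lower score limit cut through a dense part of the list. At the width limit, 8 wide peaks measured exactly 500 bp and 7 peaks in the score range measured 499 bp. The first 3 just inside, on Scaffold1074, Scaffold1726 and Scaffold2566, had scores of 15, 18 and 20. The first 3 just under it, on Scaffold1046, Scaffold1436 and Scaffold379, had scores of 8, 27 and 22. At the score limits, 111 peaks of 500 bp or more had a score of 3, and 122 had the score of 2 that left them out. At the upper end, 7 had a score of 43 and 11 had the score of 44 that left them out. Of all 1651 peaks of 500 bp or more, 427 (25.9%) stood at or above 44.

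The 5 widest members differed in score and in surroundings. The widest, at Scaffold212:305483-307078, measured 1596 bp, had a score of 19 and lay 406 bp from its nearest neighbour, which was itself 885 bp wide. The peak at Scaffold192:518217-519611 measured 1395 bp with a score of 31 and had its nearest neighbour at 2368 bp. The peak at Scaffold445:167091-168460 measured 1370 bp with a score of 14 and had 8 other peaks within 10 kb. These 3 lay among other peaks on both sides, and the next was open on one side. The peak at Scaffold523:265726-267081 measured 1356 bp with a score of 36, lay 257 bp from the peak before it and 204491 bp from the peak after it. The fifth, at Scaffold2146:57810-59131, measured 1322 bp with a score of 22 and lay 879 bp from a peak with a score of 135, which is above the score range. All 5 had another peak within 5 kb.

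The highest score, 43, was shared by 7 wide peaks, and the 5 described here were taken in the order of their scaffolds. Of these, 4 were narrower than the median wide peak, and the peak on Scaffold213 was wider than the upper quartile. The peak at Scaffold145:746521-747089 measured 569 bp and lay 6298 bp from its nearest neighbour. The peak at Scaffold213:678370-679128 measured 759 bp and lay 153 bp from a peak of 1234 bp with a score of 3. The peak at Scaffold330:444500-445038 measured 539 bp and had its nearest neighbour at 6521 bp. Their surroundings thus ranged from crowded to open, and the others extended this range. The peak at Scaffold364:593169-593679, of 511 bp, had 9 other peaks within 10 kb, and its nearest neighbour was 1515 bp wide with a score of 48. The peak at Scaffold2387:8926-9486, of 561 bp, was the only peak on its scaffold.

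Wide peaks lay closer to other eRNA peaks than peaks of 200 to 400 bp did. The gap, counted as the bases between the end of a peak and the start of the nearest other peak of any width and score, had a median of 1996.5 bp for wide peaks (95% order-statistic interval 1775 to 2257 bp, n = 1078 with a neighbour). For peaks of 200 to 400 bp it had a median of 5314 bp (interval 4998 to 5667 bp, n = 4640), and over all peaks 5567.5 bp. The ratio of wide peaks to peaks of 200 to 400 bp was 0.376. The intervals cover only the counting error over the peaks of 1 list, which are not replicates, and no test was run. The spread within each class was larger than the difference between medians, with quartiles of 686 and 7836 bp for wide peaks and 1324 and 19082 bp for peaks of 200 to 400 bp.

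Within 5 kb, 734 of 1102 wide peaks (66.6%, exact Clopper-Pearson 95% interval 63.7 to 69.4%) had another peak, against 2253 of 4908 peaks of 200 to 400 bp (45.9%, 44.5 to 47.3%) and 45.3% of all peaks. Within 1 kb the shares were 32.6% of wide peaks and 19.5% of peaks of 200 to 400 bp. Within 200 bp they were 8.17% and 4.22%, and within 50 kb 94.3% and 85.8%. The curve of wide peaks therefore stood above the curve of peaks of 200 to 400 bp at each of these distances.

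**Figure D2:**
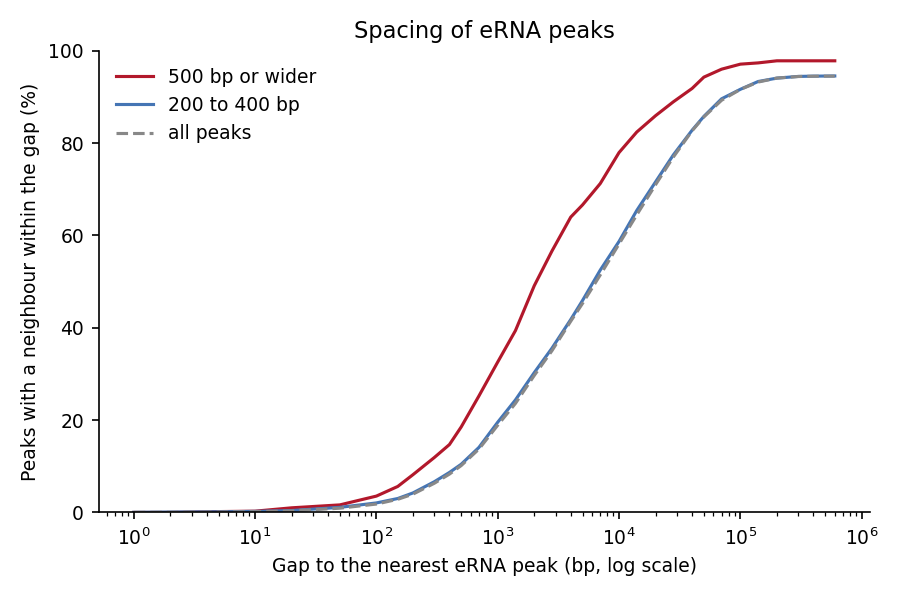
The share of peaks (vertical axis, %) with another eRNA peak within a given gap (horizontal axis, bp, log scale), for wide peaks (red), peaks of 200 to 400 bp (blue) and all peaks (dashed). At 5 kb the curves stand at 66.6%, 45.9% and 45.3%, and they end below 100% because some peaks are alone on their scaffold.

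Closeness was not limited to the nearest peak. On the far side, where a peak had neighbours on both sides, the larger of its gaps had a median of 14165 bp in wide peaks and 26667 bp in peaks of 200 to 400 bp. Wide peaks had on average 2.40 other peaks within 10 kb, and peaks of 200 to 400 bp had 1.38. At least 3 other peaks within 10 kb were found for 434 wide peaks (39.4%) and 970 peaks of 200 to 400 bp (19.8%). Within 50 kb the medians were 5 and 3 other peaks. Between midpoints, a distance that includes part of the width of both peaks, the ratio of the medians was 0.450.

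Within the score range the median gap of peaks of 200 to 400 bp fell from each score class to the next, and that of wide peaks fell unevenly. Wide peaks and peaks of 200 to 400 bp were therefore also compared at like scores. At a score of 3 the median gap was 2978 bp for the 111 wide peaks and 6116 bp for the 1478 peaks of 200 to 400 bp, a ratio of 0.487. At scores of 6 to 9 it was 1708 bp and 5233 bp, a ratio of 0.326. At scores of 10 to 19 it was 2073 bp and 4181.5 bp, a ratio of 0.496. At scores of 20 to 43 it was 1737 bp for 312 wide peaks and 3606 bp for 326 peaks of 200 to 400 bp, a ratio of 0.482. Wide peaks had the smaller median in each of the 5 score classes. Their intervals did not overlap those of peaks of 200 to 400 bp in any class, but the intervals cover only counting error over peaks that are not replicates. When peaks of 200 to 400 bp were weighted to have the scores of the wide peaks, a comparison chosen after the data were seen, their median gap was 4527 bp and the ratio 0.441.

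The gap also became shorter, though unevenly, along the widths of the list. Among peaks with scores 3 to 43, the median gap was 9987 bp under 100 bp of width. It was 5977 bp from 100 to 199 bp, 5537 bp from 200 to 299 bp and 5190.5 bp from 300 to 399 bp. It was 3604 bp from 400 to 499 bp and 2292.5 bp from 500 to 599 bp. From 600 to 699 bp it was 1811 bp, from 700 to 799 bp 1958 bp and from 800 bp on 1345.5 bp. The limit of 500 bp therefore cut through a fall from 400 to 599 bp, with less change from 100 to 399 bp and from 600 to 799 bp. The median score went up over the same widths, from 4 under 100 bp to 18.5 from 800 bp on, and which of the measures the spacing goes with was not tested.

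**Figure D3:**
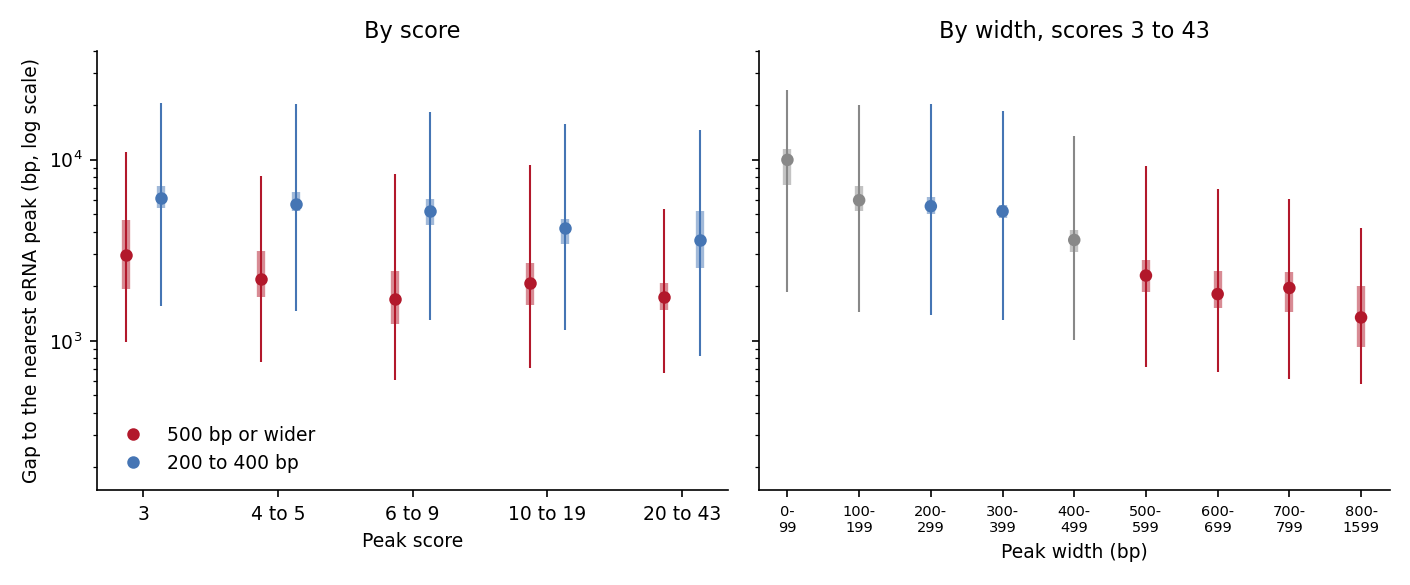
Median gap to the nearest eRNA peak (points, bp, log scale) with quartiles (thin lines) and 95% order-statistic intervals of the median (thick lines). Left, wide peaks (red) and peaks of 200 to 400 bp (blue) in 5 score classes, with wide peaks lower in each. Right, all peaks with scores 3 to 43 by width, with medians of 9987 bp under 100 bp and 1345.5 bp from 800 bp on (widths of 500 bp or more in red, 200 to 399 bp in blue).

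Within scaffolds the difference was smaller than over the whole list. On the 546 scaffolds that held both classes with a neighbour, the median gap was 1875 bp for 984 wide peaks and 4048.5 bp for 2530 peaks of 200 to 400 bp, a ratio of 0.463. On all other scaffolds it was 5814 bp for the 94 wide peaks with a neighbour and 7459.5 bp for 2110 peaks of 200 to 400 bp. Compared scaffold by scaffold, the wide peaks had the smaller median gap on 328 of the 546 scaffolds, the larger on 196 and the same on 22, and the median ratio over scaffolds was 0.637. The smaller gap of wide peaks was thus a tendency with many exceptions. On the 92 scaffolds with at least 3 peaks of each class, wide peaks had the smaller median gap on 58 (63.0%), and the median ratio was 0.691.

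The nearest neighbour of a wide peak was more often wide itself. It measured 500 bp or more for 195 of 1078 wide peaks (18.1%), for 444 of 4640 peaks of 200 to 400 bp (9.57%) and for 9.96% of all peaks with a neighbour. In most other respects the nearest neighbours were ordinary peaks of the list. Their median width was 342 bp for wide peaks and 316 bp for peaks of 200 to 400 bp, and their median scores were 4 and 3. Peaks of the lowest score, 2, were the nearest neighbour of 38.03% of wide peaks and of 43.3% of peaks of 200 to 400 bp. A peak with a score of 44 or more lay within 5 kb of 118 of 1102 wide peaks (10.7%, 8.94 to 12.7%). For peaks of 200 to 400 bp it was 234 of 4908 (4.77%, 4.19 to 5.40%). Most peaks of either class had none that close. Such a peak was on the scaffold of 54.9% of wide peaks, at a median gap of 65225 bp. For peaks of 200 to 400 bp these values were 44.5% and 99542 bp, and the scores of the classes were not matched here. Peaks of the lowest score were within 5 kb of 36.1% of wide peaks and 24.7% of peaks of 200 to 400 bp.

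Most wide peaks were not grouped with other wide peaks, and those that were formed short groups. With a gap of at most 5 kb from one wide peak to the next, 207 of them (18.8%) fell into 93 groups, made up of 78 pairs, 10 groups of 3 and 5 of 4 or more. Peaks of 200 to 400 bp, which are more numerous, grouped to a similar extent by this count, with 943 of 4908 (19.2%) in 426 groups. The largest group of wide peaks, at Scaffold88:195088-209149, held 5 within 14062 bp, with widths of 519 to 799 bp and scores of 18 to 36. The groups of 4 lay on Scaffold34, Scaffold355, Scaffold364 and Scaffold422 and spanned 5949 to 12768 bp.

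Some wide peaks were nearly joined. The closest pair lay at Scaffold891:120647-121597 and Scaffold891:121602-122126, 4 bp apart, with widths of 951 and 525 bp and scores of 24 and 32. The next pair lay on Scaffold20, at 1065801-1066591 and 1066604-1067116, 12 bp apart, with scores of 42 and 6. The third lay on Scaffold3, at 195803-196515 and 196530-197078, 14 bp apart, with scores of 6 and 13. In each of these pairs the gap was small against the width of either peak, and in the v5.0 assembly the same gaps of 4, 12 and 14 bp were found. A pair of this kind is counted as separate peaks throughout.

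At the other end, 63 wide peaks (5.72%) had no other peak within 50 kb, against 698 peaks of 200 to 400 bp (14.2%). Among those with neighbours on both sides, the most isolated wide peak was at Scaffold331:242835-243434, with a score of 16 and 90528 bp to its nearest neighbour. It was followed by Scaffold165:112323-112829, with a score of 23 and 83223 bp, and by Scaffold51:396565-397102, with a score of 3 and 81007 bp. These 3 thus differed in score, although in v3.1 each had more than 80 kb free on either side. In v5.0 the nearest gap was 84879 bp for the peak on Scaffold165 and 47815 bp for the peak on Scaffold51, which there measured 2526 bp, while the peak on Scaffold331 was not found. On 24 scaffolds a wide peak was the only peak (2.18% of wide peaks), against 5.46% of peaks of 200 to 400 bp. These 24 had a median score of 9.5 and a median width of 611.5 bp. In v5.0, which places all intervals on 107 scaffolds, the 20 of them that were lifted as single intervals all had a neighbour, at 1175 to 149317 bp (median 10229 bp).

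Wide peaks were spread over many scaffolds, and most scaffolds that had any had few. The 1102 peaks lay on 645 of the 2922 scaffolds with a peak, and 389 of the 645 (60.3%) held a single wide peak. Peaks of 200 to 400 bp lay on 1755 scaffolds. Scaffolds with 5 or more wide peaks numbered 22 and together held 142 of them (12.9%). Without the 4 scaffolds richest in wide peaks, a comparison chosen after the data were seen, the ratio of the median gaps was 0.378.

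Scaffolds rich in peaks held more than their share. On scaffolds with at least 10 peaks lay 804 wide peaks (73.0%, 70.2 to 75.6%) and 3099 peaks of 200 to 400 bp (63.1%, 61.8 to 64.5%). Wide peaks made up 5.03% of the peaks in the score range on scaffolds with a single peak, 7.53% with 2 to 4 peaks and 11.4% with 5 to 9 peaks. They made up 12.5% with 10 to 19 peaks, 14.1% with 20 to 39 peaks and 16.8% with 40 peaks or more. All 25 scaffolds of the last class held a wide peak, but 32 of the 211 scaffolds with 20 peaks or more held none, the largest of them Scaffold25 with 36 peaks. On scaffolds with at least 10 peaks, 42 of 804 wide peaks (5.22%) were the first or last peak, against 334 of 3099 peaks of 200 to 400 bp (10.8%). The number of peaks on the scaffold was not matched in this comparison. End peaks are a smaller share of a scaffold with more peaks, where wide peaks were more frequent, so that part of the difference is built in. Scaffold lengths were not used here, and the number of peaks on a scaffold stands for both its length and its density.

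**Figure D4:**
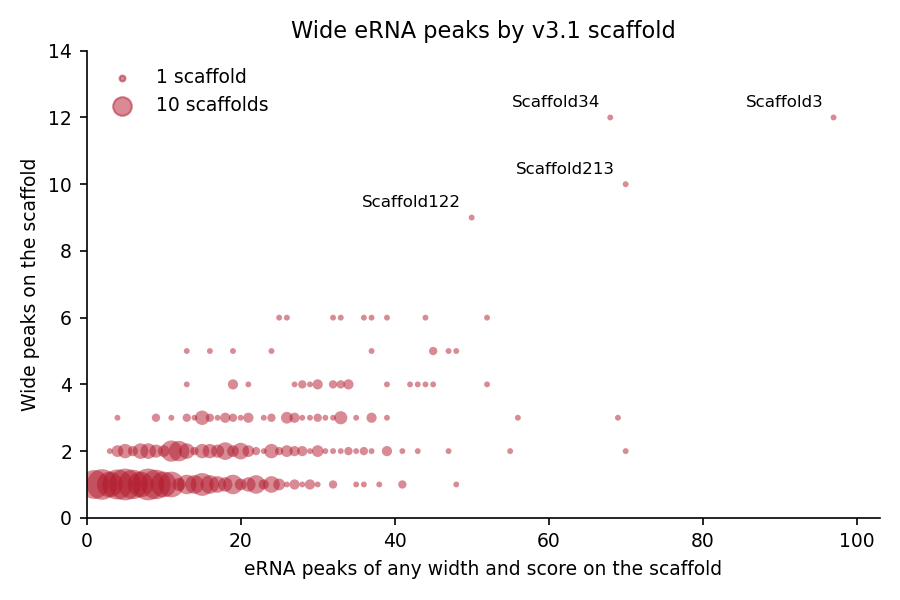
Each circle stands for scaffolds of the v3.1 assembly that hold at least 1 wide peak, with all eRNA peaks on the scaffold on the horizontal axis and wide peaks on the vertical axis; the area gives the number of scaffolds. Most of the 645 scaffolds hold 1 wide peak, and Scaffold3 and Scaffold34 hold 12 each.

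Scaffold3 and Scaffold34 carried the most wide peaks, 12 each. On Scaffold3, which with 97 peaks also had the most peaks of all, they were spread over 1873 kb in v3.1, with widths of 513 to 717 bp and scores of 3 to 36. Their nearest gaps ran from 14 to 11547 bp with a median of 1789 bp, and 10 of the 12 had a neighbour within 5 kb. The highest score there, 36, was at Scaffold3:1978102-1978701, 452 bp from its nearest neighbour. In v5.0 the 12 peaks were placed on 3 scaffolds, 4 on each of NW_022145600.1, NW_022145596.1 and NW_022145611.1, so that the single span holds for v3.1 only. On Scaffold34, with 68 peaks, they lay within 421 kb in v3.1, with widths of 507 to 852 bp and scores of 3 to 26. There the gaps had a median of 937 bp, and 11 of the 12 were within 5 kb of a neighbour. The remaining peak, at Scaffold34:1202024-1202573, was the last peak of the scaffold and lay 160588 bp from the peak before it, while in v5.0 its nearest gap was 74695 bp. In v5.0, 9 of the 12 were placed on NW_022145599.1 and 3 on NW_022145543.1. The group of 4 at Scaffold34:810571-816837 held the highest-scoring wide peak of that scaffold, at 812742-813305. Wide peaks made up 30.8% of the peaks in the score range on Scaffold34 and 23.1% on Scaffold3, against 12.1% over the whole list. Both scaffolds were picked for their number of wide peaks, so that high shares follow in part from the choice.

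Scaffold8, on which the coordinates given by the study place *Sp-kirrelL*, a gene for a membrane protein needed for fusion of skeletogenic cells, held 3 wide peaks among 27 peaks. The peak at Scaffold8:48353-49063 measured 711 bp with a score of 31 and was the first peak of the scaffold, 486 bp before the next. The peak at Scaffold8:54161-54811 measured 651 bp with a score of 8 and lay 3044 bp from its nearest neighbour. The peak at Scaffold8:1448977-1449544 measured 568 bp with a score of 7 and lay 11 bp from a peak of 331 bp. All 3 had a neighbour within 5 kb, and their distance from *Sp-kirrelL* was not analysed here. In v5.0 they were found on NW_022145595.1 (the peaks of 711 and 651 bp, there 714 and 651 bp) and NW_022145614.1 (the peak of 568 bp, there 557 bp).

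The authors' lift-over to v5.0 gave a second set of coordinates for the same peaks, which is no separate measurement. In v5.0, 1076 wide peaks (97.6%, 96.6 to 98.5%) were found by name, against 4741 peaks of 200 to 400 bp (96.6%, 96.1 to 97.1%), and 26 wide peaks were not. Of those found, 1055 had an interval of their own, 20 shared an interval with another peak, and 1 was placed in several intervals. The width was unchanged for 560 of 1055 wide peaks (53.1%, 50.02 to 56.1%) and for 2773 of 4578 peaks of 200 to 400 bp (60.6%, 59.1 to 62.0%). Changes were mostly small, since 80.6% of wide peaks and 82.7% of peaks of 200 to 400 bp kept their width to within 10 bp. Wide peaks became narrower by more than 10 bp in 11.3% of cases and wider by more than 10 bp in 8.15%.

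**Figure D5:**
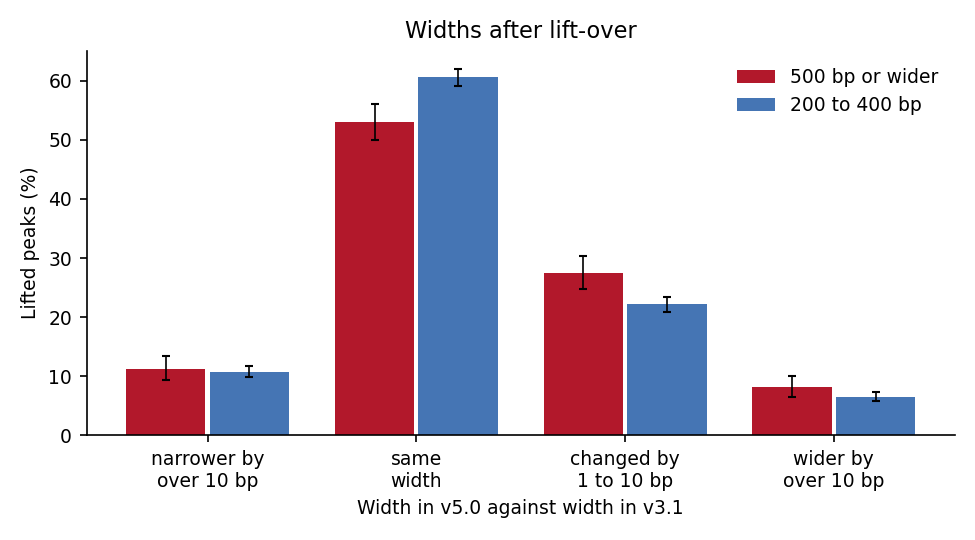
Percentage of lifted peaks (vertical axis) by how their width in v5.0 compares with that in v3.1, for 1055 wide peaks (red) and 4578 peaks of 200 to 400 bp (blue) with an interval of their own; error bars are exact Clopper-Pearson 95% intervals. The width was the same for 53.1% of wide peaks and 60.6% of peaks of 200 to 400 bp.

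The lifted wide peaks remained a wide set with a few extremes. In v5.0, 982 of the 1055 (93.1%) still measured 500 bp or more, while 3.08% of peaks of 200 to 400 bp did. The narrowest intervals, of 1 bp, came from peaks of 584 bp on Scaffold1740, 672 bp on Scaffold3319 and 622 bp on Scaffold615, with scores of 5, 3 and 4. The widest, of 16544 bp, came from the peak of 882 bp at Scaffold305:202485-203366, and 10 wide peaks exceeded 2000 bp in v5.0. Median gaps in v5.0 were 2568 bp for wide peaks and 6706 bp for peaks of 200 to 400 bp, larger than the 1996.5 and 5314 bp in v3.1. Their ratio, 0.383, was alike. Since 93.1% of lifted wide peaks lay on the 21 v5.0 scaffolds with at least 100 intervals, their share among peaks of both classes could be compared over these large scaffolds. It was 18.7% in all and ranged from 7.33% (4.07 to 12.0%) on NW_022145606.1, with 14 wide peaks, to 24.1% (19.1 to 29.8%) on NW_022145615.1, with 63. The intervals of these extremes did not overlap, and as the lowest and highest of 21 scaffolds they were picked by their values.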

How the data were processed

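CAGE libraries from 9 stages were used as pooled in the deposited lists of eRNA peaks. Per the labels and the series' design text, the authors checked reads with FastQC, mapped them to the *S. purpuratus* v3.1 genome with BWA, realigned reads of low mapping quality with HISAT2, clustered start sites with DPI without decomposition, and took pairs of divergent clusters as enhancers with the FANTOM5 script; versions are not given in the sources used here. The deposited score of each peak is a whole number whose meaning the sources do not define. The authors lifted the positions to v5.0, where peaks were matched here by name.

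Wide peaks, the comparison class and the peaks described singly were chosen with earlier results of these data known. Peaks described singly are the 5 widest, the 5 with the highest score, 3 on each side of the width limit, the 3 closest pairs, the 3 most isolated, and all on the richest scaffolds (summarised) and on Scaffold8. Gaps count bases between peaks; starts were counted from 1. Shares have exact Clopper-Pearson and medians order-statistic 95% intervals, for counting error only. Distance and class functions were tested on simulated data. Alternatives covered the limits of width and score, the distance measure, the neighbours counted, the scaffolds and the assembly. Python 3.11.15, numpy 2.4.6, pandas 2.3.3, scipy 1.17.1 and matplotlib 3.10.9 were used. Sequences and gene annotation of the peaks were not used here.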

Additional observations from a re-analysis of the deposited data

How the results depend on the processing

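Of 57 values recomputed under 16 alternative settings, 37 stayed within the 95% interval of the reported value (for counts, within 1.5 times of it) and 20 moved. Only the ratio of the median gaps and the difference of the median scores have a direction, and neither changed it. The other values are counts and shares, which cannot change direction. Among the settings, 4 were chosen after the data were seen. The ratio of the median gaps was 0.376 and ran from 0.332 to 0.637 over 15 alternatives. It was 0.332 with a width minimum of 600 bp, 0.333 with neighbours in the score range only, 0.450 between midpoints, 0.442 between starts and 0.637 as the median over scaffolds. Among settings chosen afterwards it was 0.441 with scores weighted alike, 0.462 with neighbours under 500 bp only and 0.433 for peaks with neighbours on both sides. Some subsets given above, which are not among the alternatives, lay outside this range. The ratio was 0.326 at scores of 6 to 9 and 0.779 on scaffolds without both classes. As the median over scaffolds with at least 3 peaks of each class it was 0.691. The share of wide peaks with a neighbour within 5 kb was 71.3% from 600 bp on, 63.0% without an upper score limit, 51.5% with neighbours in the score range only and 63.5% in v5.0. Chosen afterwards, it was 60.5% with neighbours under 500 bp and 72.1% with neighbours on both sides. With the minimum of 600 bp, 508 wide peaks on 356 scaffolds were left, 96.5% were found in v5.0, and the difference of median scores was 9; without an upper score limit that difference was 14. Allowing 10 bp, 80.6% kept their width in v5.0. The cause of these shifts was not tested. No paired analysis was possible because the list pools the libraries, and no library could be left out for the same reason. The depth behind a peak is unknown, and what it limits could not be assessed.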

Other observations

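The widths of the whole list had a step just above 401 bp. There were 765 peaks of 392 to 401 bp, 372 of 402 to 411 bp and 299 of 412 to 421 bp. The step was steepest among peaks with the lowest score of 2, with 347, 114 and 64 peaks in these 3 width classes. Peaks with scores of 44 or more had 30, 21 and 28. Over the list, 3587 peaks (19.8%) were wider than 401 bp, among them all wide peaks, and the share was 5.71% at a score of 2, 27.7% at scores of 3 to 43 and 65.4% at 44 or more. The limit of 500 bp thus lay beyond this step, in the tail of the distribution.

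The share of peaks of 500 bp or more leveled off with score. It was 1.52% at a score of 2, 4.54% at 3, 10.5% at 6 to 9, 20.8% at 10 to 19 and 32.1% at 20 to 43. Above the score range it was 46.2% at 44 to 99 (n = 364), 44.8% at 100 to 999 (n = 259) and 48.0% at 1000 or more (n = 298), where the exact Clopper-Pearson 95% interval was 42.2 to 53.8%. Over all 921 peaks at 44 or more the share was 46.4% and the median width 473 bp, so that more of the highest-scoring peaks were under 500 bp than at or above it.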
